A study of Mus musculus with 15 samples.

Results

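This account follows 9 genes of steroid hormone signalling through the tibialis anterior (TA) muscle of a mouse with X-linked myotubular myopathy, with and without tamoxifen (TAM). They were taken by symbol, and all 9 were found among the 30672 genes of the count table. *Esr1* encodes oestrogen receptor alpha, *Gper1* a G protein-coupled receptor for oestrogen and *Pgr* the progesterone receptor. *Greb1* is not a receptor: it is a target gene and cofactor of oestrogen receptor alpha. *Esrra*, *Esrrb* and *Esrrg* encode the 3 oestrogen-related receptors, *Nr3c1* the glucocorticoid receptor and *Nr3c2* the mineralocorticoid receptor.

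Total RNA of TA muscles from male 129Pas mice aged 7 weeks was sequenced in 4 groups, namely untreated wild type (WT, n = 4), wild type given tamoxifen (WT + TAM, n = 4), untreated Mtm1-/y (n = 4) and Mtm1-/y given tamoxifen (Mtm1-/y + TAM, n = 3). *Mtm1* encodes the phosphoinositide phosphatase myotubularin, and Mtm1-/y males carry no intact copy of this X-linked gene. How much tamoxifen was given, how and for how long, and whether untreated mice had a vehicle, was not stated where the design was read. The labels number the replicates without saying that each is a separate mouse, so p-values measure the spread between these samples.

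Steroid receptors are transcription factors that are held by heat shock chaperones until hormone binds, after which they attach to short palindromic elements in DNA and recruit coactivators or corepressors. Tamoxifen binds the oestrogen receptors and acts as agonist or antagonist depending on the tissue. In skeletal muscle the glucocorticoid receptor is known for inducing genes of protein breakdown and fuel switching, and oestrogen-related receptors, which need no oestrogen, for driving genes of oxidative metabolism.

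Libraries held 18042558 to 45823277 counts. *Mtm1* (chromosome X, 71210767 to 71315691, GRCm38) was at 14.9 to 15.6 CPM (read counts scaled to a common library size) in WT and 13.5 to 17.7 in WT + TAM, and at 2.91 to 3.63 in Mtm1-/y and 3.04 to 3.71 in Mtm1-/y + TAM, as the labels say. Summed CPM of 6 muscle fibre markers was 127884 to 223257 in all 15 libraries, as the tissue label says. WT + TAM replicate 1 stood apart with a summed 1376 CPM of 8 slow fibre markers, against at most 265 in every other library. Mtm1-/y replicate 1 had the lowest summed CPM of 6 fibroblast markers, 333 against at least 702 elsewhere, and of 5 blood genes, 14.9 against at least 46.7. Both libraries were left out together in an alternative fit.

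**Figure D1:**
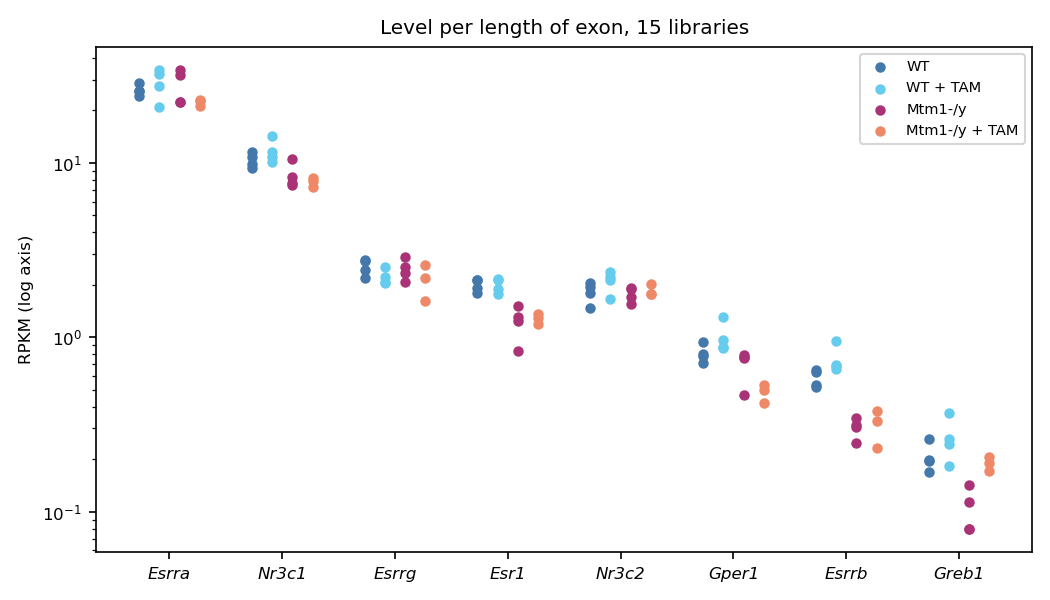
Level per kilobase of exon (RPKM, log axis) of the 8 genes that passed the filter on low counts, with 1 point per library and colours for the 4 groups. *Esrra* and *Nr3c1* lay above the other 6 genes in all 15 libraries, and *Greb1* was the lowest.

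Compared per length, in CPM divided by kilobases of exon (RPKM), the oestrogen-related receptor alpha gene *Esrra* had the highest level, at 26.1 ± 1.90 RPKM in WT (SD, n = 4), above 93.2% of the 15533 genes tested. *Nr3c1* followed at 10.4 ± 0.999 RPKM, above 83.3%. *Esrrg* was at 2.54 ± 0.284, *Esr1* at 1.99 ± 0.165 and *Nr3c2* at 1.81 ± 0.253 RPKM, near the middle of all tested genes (55.7%, 50.6% and 48.4% lower). *Gper1* at 0.81 ± 0.0947, *Esrrb* at 0.585 ± 0.0672 and *Greb1* at 0.206 ± 0.0393 RPKM were lower still. Neighbours in this order did not overlap among the WT libraries, with 1 exception: *Esr1* and *Nr3c2* overlapped, and *Esr1* was the higher in 5 of 15 libraries. Among the 3 oestrogen-related receptors, *Esrra* was thus far above *Esrrg*, and *Esrrb* was the lowest. *Pgr* did not reach the filter and had 0 to 17 counts per library. The other oestrogen receptor gene, *Esr2* (chromosome 12, 76120419 to 76177259), had 0 to 4 counts per library and was not compared.

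In GRCm38 coordinates, *Esr1* (ENSMUSG00000019768) spans 4611593 to 5005614 of chromosome 10, *Gper1* (ENSMUSG00000053647) 139423151 to 139427800 of chromosome 5 and *Pgr* (ENSMUSG00000031870) 8899833 to 8968611 of chromosome 9. *Greb1* (ENSMUSG00000036523) spans 16670615 to 16800886 and *Esrrb* (ENSMUSG00000021255) 86361117 to 86521628 of chromosome 12. *Esrra* (ENSMUSG00000024955) lies at 6910977 to 6921813 of chromosome 19, *Esrrg* (ENSMUSG00000026610) at 187608791 to 188214885 of chromosome 1, *Nr3c1* (ENSMUSG00000024431) at 39410545 to 39519421 of chromosome 18 and *Nr3c2* (ENSMUSG00000031618) at 76899442 to 77245012 of chromosome 8. Counts cover all exons of each gene, so isoforms were not told apart. *Greb1* shares 736 exon bases with the antisense gene *Gm48140*, *Nr3c2* 247 with *Gm10649* on the other strand, and *Esrra* 73 with *Trmt112* on the other strand and 91 with *Mir6990* on its own. The library kit keeps strand, but no source used says whether reads were assigned by strand, so counts from these stretches are uncertain.

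The question of the first comparison is what loss of *Mtm1* does to these genes without the drug. *Esr1*, *Esrrb* and *Greb1* were lower in Mtm1-/y than in WT muscle, by log2 fold changes of -0.70, -0.93 and -1.01. For each of the 3, every Mtm1-/y library lay below every WT library. The other 5 tested genes did not pass the test. So 3 of 8 tested genes were called at an adjusted p under 0.05 (edgeR, all 15 libraries), all lower, where 30.4% of all tested genes were called in either direction and 14.9% were called lower. Non-overlap toward lower values was found for 15.7% of all tested genes. The median log2 fold change was -0.25 over the 8 genes and 0.00 over all tested genes.

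**Figure D2:**
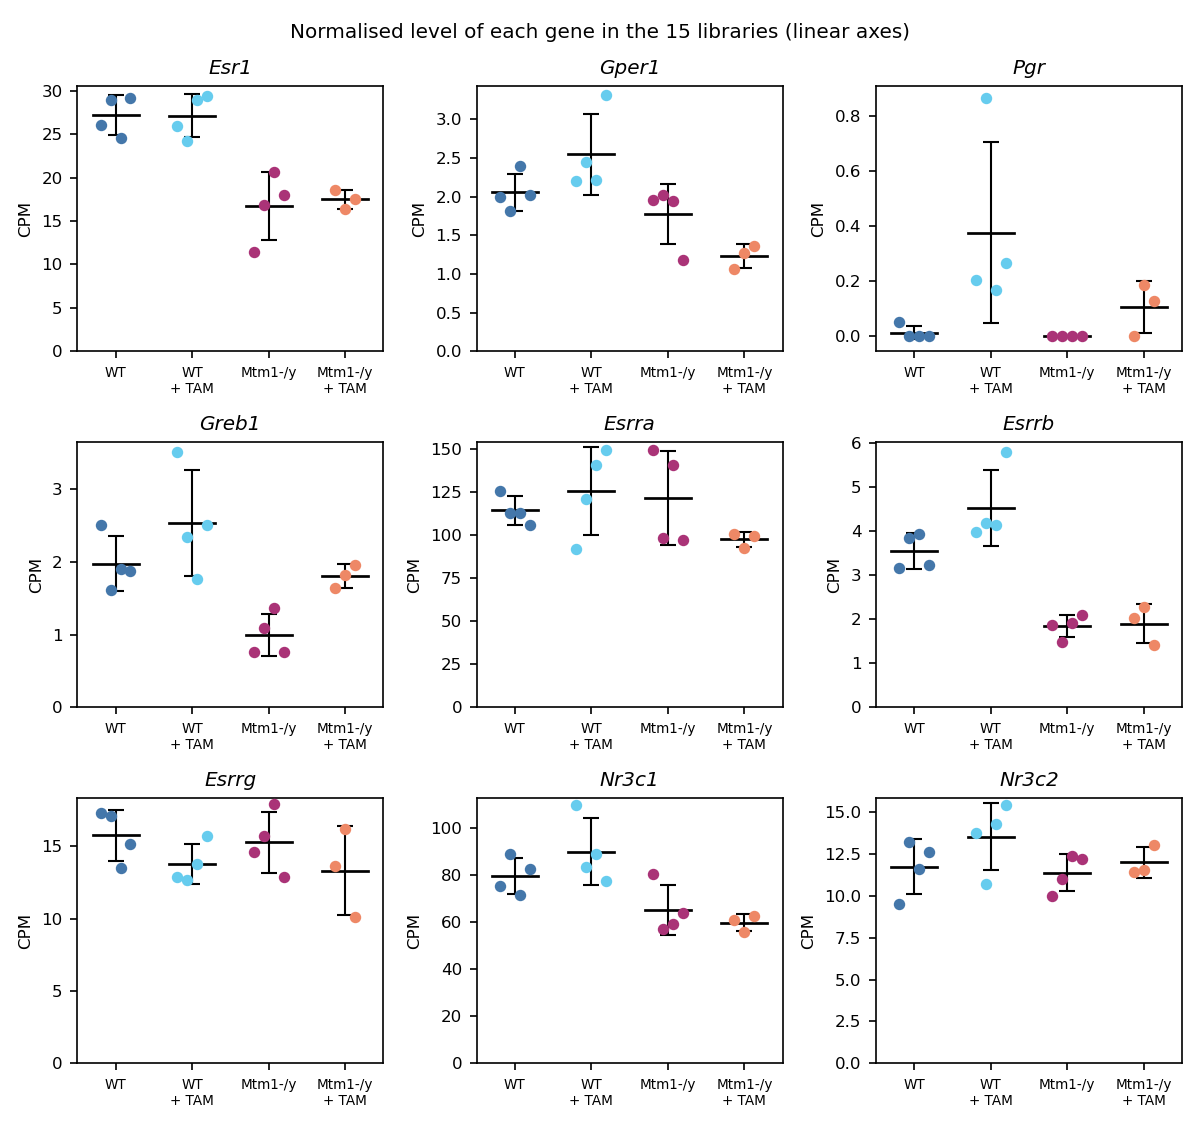
CPM of each of the 9 genes by group, with 1 point per library, the mean as a line and bars of 1 SD, on linear axes. *Esr1* and *Esrrb* were lower in both Mtm1-/y groups than in both WT groups, *Greb1* was lowest in untreated Mtm1-/y, and *Pgr* was at 0 CPM in untreated Mtm1-/y.

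*Esr1* measured 26.1, 28.9, 24.6 and 29.2 CPM in the 4 WT libraries and 11.4, 16.8, 20.6 and 17.98 CPM in the 4 Mtm1-/y libraries. The groups did not overlap, and Mtm1-/y replicate 1 was the lowest. Means were 27.2 ± 2.26 and 16.7 ± 3.87 CPM (SD, n = 4 each), and the log2 fold change was -0.70 (SE 0.14, edgeR adjusted p 0.00176), a level 0.615 times that of WT.

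*Esrrb*, the oestrogen-related receptor known from stem cells and the inner ear, was at 3.15, 3.83, 3.94 and 3.23 CPM in WT and 1.86, 1.49, 1.91 and 2.08 CPM in Mtm1-/y libraries. All 4 mutant libraries were close together and below the lowest WT library. Its log2 fold change came to -0.93 (SE 0.19, edgeR adjusted p 0.00178), a level 0.523 times that of WT. The related gene *Esrra* did not pass, with 106 to 126 CPM in WT and 97.5 to 149.5 CPM in Mtm1-/y (log2 fold change 0.09, 95% interval -0.25 to 0.42, adjusted p 0.713). *Esrrg* ranged from 13.5 to 17.3 CPM in WT and from 12.9 to 17.9 in Mtm1-/y (-0.05, 95% interval -0.35 to 0.26, adjusted p 0.834).

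*Greb1*, whose induction by oestrogen is well known in breast tissue, was at 2.51, 1.62, 1.90 and 1.88 CPM in WT and 0.758, 1.09, 1.37 and 0.761 CPM in Mtm1-/y libraries, from 41 to 102 and 27 to 43 counts. Every mutant library was below the lowest WT library. This was a log2 fold change of -1.01 (SE 0.25, edgeR adjusted p 0.00716), or 0.496 times the WT level.

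The glucocorticoid receptor gene *Nr3c1* was at 75.4, 88.7, 71.4 and 82.6 CPM in WT and at 80.4, 57.0, 59.3 and 63.8 CPM in Mtm1-/y. Mtm1-/y replicate 1 lay among the WT libraries and the other 3 below them. Over all libraries the difference was -0.29 on the log2 scale (SE 0.12, adjusted p 0.0913), and without Mtm1-/y replicate 1 it was -0.40 (adjusted p 0.0145), which passed the test. *Nr3c2*, whose product binds both mineralocorticoids and glucocorticoids, was at 9.49 to 13.2 CPM in WT and 9.99 to 12.4 in Mtm1-/y (-0.04, adjusted p 0.839). *Gper1* was at 1.82 to 2.39 and 1.19 to 2.02 CPM (-0.22, SE 0.21, adjusted p 0.452), with 3 mutant libraries within the WT range and Mtm1-/y replicate 4 below it.

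Markers of other cell types also moved between the genotypes, and in bulk muscle fewer cells of a type and less RNA per cell cannot be told apart. Of 6 endothelial markers 5 were lower in Mtm1-/y, with summed CPM of 415 to 549 in WT and 223 to 308 in Mtm1-/y. Of 6 smooth muscle and pericyte markers 3 were lower (557 to 695 against 352 to 449), and of 6 satellite cell markers 4 were lower (48.2 to 55.1 against 30.2 to 50.1). Muscle fibre markers also fell in 3 of 6 cases (164286 to 223257 against 127884 to 167981). *Calcr* of the satellite cell list had 21 to 42 counts in WT and 0 to 5 in Mtm1-/y, and no other defining marker of these lists was at 0 except *Lep* and *Retn* in the adipocyte list, each at 0 in Mtm1-/y replicate 4. Of the 6 adipocyte genes 0 passed (0 at an unadjusted p under 0.05), but all 6 had a negative log2 fold change, with a median of -1.47. Their summed CPM, 188 to 225 against 143 to 209.7, does not show this. Single calls came from fibroblast (1 of 6 higher, summed CPM 997 to 1286 against 333 to 1347) and slow fibre markers (1 of 8 lower, 82.6 to 108 against 109 to 139.9). Most of each list went the other way from its call. Of the fibroblast markers 4 of 6 had a negative log2 fold change (median -0.22), and of the slow fibre markers 6 of 8 a positive one (median 0.69). Of macrophage markers 2 of 6 were higher (16.4 to 26.7 against 16.3 to 38.3), of Schwann cell markers 2 of 6 (54.1 to 80.8 against 72.0 to 106), and of 5 blood genes 0 passed (0 at an unadjusted p under 0.05, 69.0 to 96.2 against 14.9 to 66.5). The part of these differences in the values of *Esr1*, *Esrrb* and *Greb1* was not tested.

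To show the start regions of the genes on which the results turn, the 300 bases around a RefSeq transcription start (250 before and 50 after) are printed for *Esr1*, *Esrrb*, *Greb1* and *Pgr*, with *Sgk1*, a glucocorticoid-induced kinase gene, for contrast. The windows are in GRCm38.p6: *Esr1* chr10:4611739-4612038 (plus strand), *Esrrb* chr12:86360867-86361166 (plus), *Greb1* chr12:16800837-16801136 (minus), *Pgr* chr9:8899583-8899882 (plus) and *Sgk1* chr10:21993640-21993939 (plus). Capitals mark the single 6-base receptor site AGGTCA, read on either strand, in *Greb1*, and the 15-base glucocorticoid element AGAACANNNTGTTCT in *Sgk1*.
Esr1: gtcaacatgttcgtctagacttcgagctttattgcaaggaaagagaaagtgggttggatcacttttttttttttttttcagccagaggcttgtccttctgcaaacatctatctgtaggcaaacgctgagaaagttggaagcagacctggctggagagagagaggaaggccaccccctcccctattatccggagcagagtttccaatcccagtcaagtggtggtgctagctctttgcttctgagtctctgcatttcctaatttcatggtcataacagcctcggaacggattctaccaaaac
Esrrb: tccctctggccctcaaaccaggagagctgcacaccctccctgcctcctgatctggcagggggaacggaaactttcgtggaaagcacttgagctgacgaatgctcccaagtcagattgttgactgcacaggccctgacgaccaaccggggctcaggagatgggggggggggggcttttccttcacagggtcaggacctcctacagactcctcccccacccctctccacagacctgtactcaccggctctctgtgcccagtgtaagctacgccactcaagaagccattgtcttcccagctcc
Greb1: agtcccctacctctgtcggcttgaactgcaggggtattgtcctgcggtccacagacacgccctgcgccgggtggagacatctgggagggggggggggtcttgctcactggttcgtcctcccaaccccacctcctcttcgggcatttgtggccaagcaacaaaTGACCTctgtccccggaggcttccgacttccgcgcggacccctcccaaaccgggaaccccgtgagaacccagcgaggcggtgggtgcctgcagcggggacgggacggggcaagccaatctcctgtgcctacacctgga
Pgr: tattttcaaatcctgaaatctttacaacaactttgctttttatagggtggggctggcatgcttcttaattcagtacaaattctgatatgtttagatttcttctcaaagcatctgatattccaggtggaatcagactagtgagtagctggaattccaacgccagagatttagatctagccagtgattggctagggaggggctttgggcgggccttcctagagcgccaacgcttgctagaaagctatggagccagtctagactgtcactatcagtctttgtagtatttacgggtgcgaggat
Sgk1: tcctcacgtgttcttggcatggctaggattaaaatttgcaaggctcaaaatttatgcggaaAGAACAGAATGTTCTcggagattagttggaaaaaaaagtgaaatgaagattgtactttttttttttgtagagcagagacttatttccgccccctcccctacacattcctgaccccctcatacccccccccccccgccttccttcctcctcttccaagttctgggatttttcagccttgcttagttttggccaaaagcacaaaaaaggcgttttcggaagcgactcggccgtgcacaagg

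Motifs were searched by exact letters on both strands in 14 windows of 8 of the 9 genes and in 32851 promoter windows in all. The palindromic oestrogen response element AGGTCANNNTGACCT was in 7 windows of the whole table (0.0213%), and with 1 letter fewer at each end, as GGTCANNNTGACC, in 23 (0.07%). The oestrogen-related receptor element TCAAGGTCA, which contains the single site, was in 139 (0.423%), and the glucocorticoid element in 3 (0.00913%). None of these 4 was in a window of the 8 genes. The single site AGGTCA, also part of the longer oestrogen and oestrogen-related elements, was in 5340 windows (16.3%) and, among the 8 genes, in *Greb1* alone, 88 bases before the start. *Sgk1* held the glucocorticoid element 189 bases before the start shown. It also held the oestrogen-related receptor element and the single site AGGTCA, in sequence that is not printed here. A match of letters is a description and not evidence of binding, and these windows leave out more distant sites.

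The comparison of WT + TAM with WT asks what the drug does in healthy muscle. No gene of the 8 tested passed (edgeR 0 called, 0 at an unadjusted p under 0.05, and 0 by DESeq2 and by limma-voom), where 0.309% of all tested genes were called. *Esr1* was at 25.9, 24.2, 28.9 and 29.4 CPM in WT + TAM, which overlapped WT (log2 fold change -0.00, 95% interval -0.30 to 0.29). *Esrrb* was the only one whose libraries did not overlap, at 3.96, 4.18, 4.12 and 5.79 CPM, all above WT (0.36, SE 0.18, adjusted p 0.481), where 8.08% of all tested genes did not overlap. *Greb1* was at 3.51, 2.34, 1.76 and 2.52 CPM, with overlap of the groups (0.34, SE 0.24, adjusted p 0.636). *Gper1* (0.31, SE 0.20), *Nr3c1* (0.18, SE 0.12), *Nr3c2* (0.21, SE 0.13), *Esrra* (0.14, SE 0.16) and *Esrrg* (-0.20, SE 0.14) had adjusted p values of 0.576 to 0.795.

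*Pgr*, a classical oestrogen target gene, was read almost only in tamoxifen-treated muscle. It had 5, 17, 7 and 7 counts in WT + TAM and 2, 0, 0 and 0 in WT, 0, 7 and 5 in Mtm1-/y + TAM and 0 in all 4 Mtm1-/y libraries. A count of 0 allows up to 3 counts, which on unscaled library totals is 0.0867 to 0.131 CPM in the 3 WT libraries at 0 and 0.0724 to 0.13 in the Mtm1-/y libraries. Pooled per group, also on unscaled totals, the counts came to 0.305 CPM (exact Poisson 95% interval 0.214 to 0.423) in WT + TAM against 0.0153 (0.00186 to 0.0554) in WT, and 0.133 (0.0689 to 0.233) in Mtm1-/y + TAM against 0 (up to 0.0279) in Mtm1-/y. Such intervals and limits cover counting error only. WT + TAM did not overlap WT, while Mtm1-/y + TAM shared a library at 0 with Mtm1-/y.

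Since *Pgr* was under the filter, it was tested on TMM-scaled CPM by an exact permutation test that counts both directions. For WT + TAM against WT the p was 0.0286 (0.0714 adjusted over 5 tests), the smallest that 4 against 4 libraries can give, and it was 0.0857 without any 1 of the WT libraries. For Mtm1-/y + TAM against Mtm1-/y the exact p was 0.143 (adjusted 0.238). With the tamoxifen effect averaged over both genotypes, permuting within genotype gave an exact p of 0.00204 (2450 arrangements, adjusted 0.0102) for a mean difference of 0.234 CPM. Without WT + TAM replicate 2, which held 17 of the 36 WT + TAM counts, the difference was 0.152 CPM on average and 0.201 in place of 0.364 CPM within WT. An edgeR fit with no count filter gave *Pgr* an adjusted p of 0.0156 for this average, 0.0721 within WT and 0.841 within Mtm1-/y. For the averaged effect, edgeR called 0 markers of other tissue components. The unadjusted p was under 0.05 for 7 of 8 slow fibre markers (median log2 fold change 2.23), 5 of 5 blood genes (0.73) and 2 of 6 adipocyte markers (1.3). It was also under 0.05 for 1 of 6 fibroblast markers (0.38, all 6 positive). The muscle fibre list (-0.04) and the smooth muscle and pericyte list (-0.20) had 1 of 6 each. Summed CPM of slow fibre markers was 82.6 to 108 in WT, 68.3 to 1376 in WT + TAM, 109 to 139.9 in Mtm1-/y and 120.1 to 265 in Mtm1-/y + TAM. For blood genes it was 69.0 to 96.2, 80.6 to 198, 14.9 to 66.5 and 46.7 to 115 in the same order, and for adipocyte markers 188 to 225, 184 to 206, 143 to 209.7 and 146 to 192. For fibroblast markers it was 997 to 1286, 702 to 3091, 333 to 1347 and 776 to 1637. Their part in the *Pgr* and *Greb1* values was not tested. The remaining comparisons of *Pgr* had an exact p of 1 (Mtm1-/y against WT) and 0.2 (Mtm1-/y + TAM against WT + TAM).

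The tamoxifen comparison in WT shares its WT libraries, and the one in Mtm1-/y its Mtm1-/y libraries, with the genotype comparison above. What the drug does in diseased muscle was read from Mtm1-/y + TAM set against untreated Mtm1-/y. None of the 8 tested genes passed (edgeR 0 called and 2 at an unadjusted p under 0.05, 0 by DESeq2 and by limma-voom), where 0.0129% of all tested genes were called. *Greb1* was at 1.64, 1.83 and 1.96 CPM, above all 4 untreated Mtm1-/y libraries, with a log2 fold change of 0.88 (SE 0.27, unadjusted p 0.00471, adjusted p 0.855). Non-overlap was found for 5.7% of all tested genes. *Gper1* was at 1.06, 1.27 and 1.36 CPM against 1.96, 2.02, 1.94 and 1.19 (log2 fold change -0.51, SE 0.23, unadjusted p 0.0421, adjusted p 0.855), with overlap through Mtm1-/y replicate 4. *Esr1* was at 18.6, 16.4 and 17.5 CPM (0.06, 95% interval -0.26 to 0.39), and *Esrrb* at 2.01, 2.28 and 1.41 CPM (0.04, 95% interval -0.40 to 0.47).

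**Figure D3:**
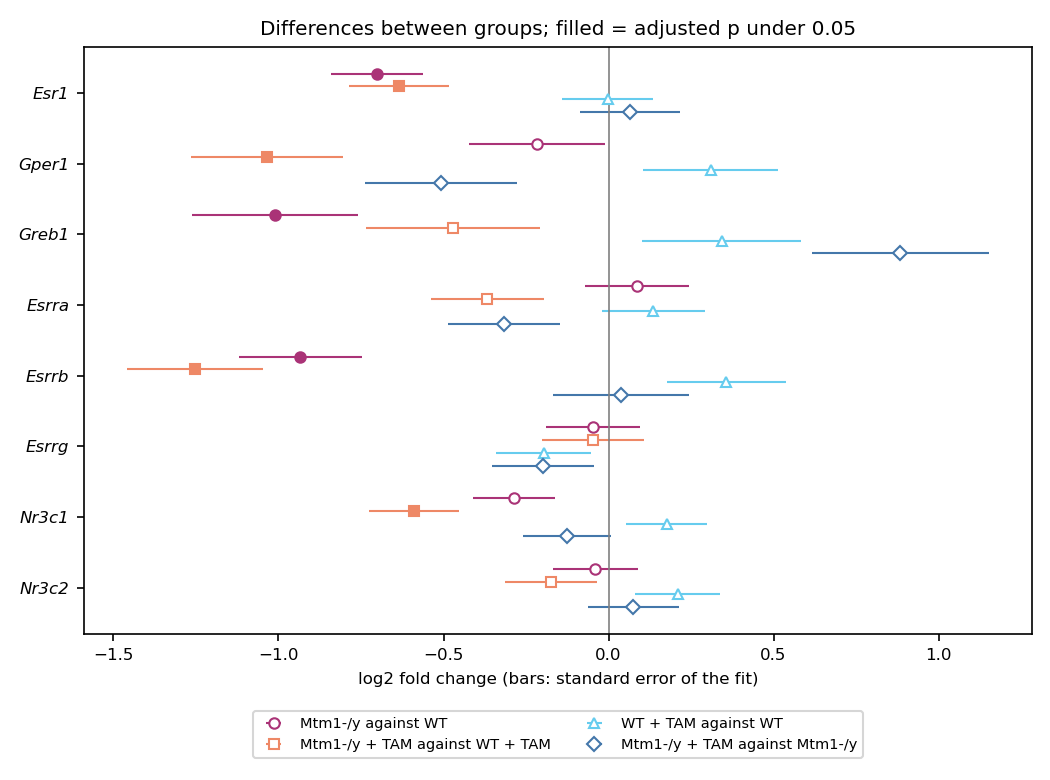
Log2 fold change of the 8 tested genes in 4 comparisons between groups, with the standard error of the edgeR fit as bars and filled symbols for an adjusted p under 0.05. The 7 filled symbols all lie below 0 and all belong to the comparisons of Mtm1-/y with WT, without tamoxifen (circles) or with it (squares).

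Averaged over both genotypes, tamoxifen moved no tested gene past the threshold (edgeR 0 called, 1 at an unadjusted p under 0.05, 0 by DESeq2 and by limma-voom), where 0.206% of all tested genes were called. *Greb1* came nearest at 0.61 (SE 0.18, unadjusted p 0.00378, adjusted p 0.324), and was called under none of the alternatives. The interaction, which tests whether the drug effect differs between the genotypes, was called for none of the 8 (1 at an unadjusted p under 0.05, 0 by DESeq2 and by limma-voom) and for 0% of all tested genes by edgeR, with 1650 at an unadjusted p under 0.05 and 74 called by DESeq2 and 0 by limma-voom. *Gper1* had the lowest interaction p, at -0.82 (SE 0.31, unadjusted p 0.0173, adjusted p 0.409), from a log2 fold change of 0.31 in WT and -0.51 in Mtm1-/y.

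Between the tamoxifen-treated groups, 4 of 8 genes were lower in Mtm1-/y + TAM than in WT + TAM, namely *Esr1*, *Esrrb*, *Gper1* and *Nr3c1*, and none of these 4 overlapped. Of all tested genes, 20.1% (3121 genes, and 1656 without Mtm1-/y + TAM replicate 2) were called and 9.46% were called lower, and 14.4% did not overlap toward lower values. The median log2 fold change was -0.53 over the 8 genes and -0.02 over all tested genes.

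*Esr1* was at 0.644 times its WT + TAM level (log2 fold change -0.64, SE 0.15, adjusted p 0.00929), and *Esrrb* at 0.42 times (-1.25, SE 0.21, adjusted p 0.000824). *Gper1* was at 1.06, 1.27 and 1.36 CPM against 2.21, 2.45, 2.22 and 3.32 CPM (-1.03, SE 0.23, adjusted p 0.00589). *Nr3c1* was at 60.8, 55.6 and 62.7 CPM against 109.8, 83.3, 88.6 and 77.6 CPM (-0.59, SE 0.14, adjusted p 0.00735). *Gper1* and *Nr3c1* were thus separate between the treated groups, and neither had a called interaction, so a different genotype effect with and without the drug was not shown.

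*Greb1* was at 1.81 ± 0.161 CPM in Mtm1-/y + TAM (SD, n = 3) and 2.53 ± 0.729 CPM in WT + TAM (SD, n = 4), which did not pass (-0.47, SE 0.26, adjusted p 0.226). *Esrra* was at 101, 92.5 and 99.4 CPM against 92.1, 121, 141 and 149 CPM, and WT + TAM replicate 1 was the lowest of all 7. Its log2 fold change was -0.37 (SE 0.17, adjusted p 0.141), and without that library -0.49 (adjusted p 0.0337), which passed. *Esrrg* (-0.05, SE 0.16) and *Nr3c2* (-0.17, SE 0.14) did not pass. Endothelial markers were again lower in 3 of 6 cases, smooth muscle and pericyte markers in 5 of 6 and satellite cell markers in 3 of 6. Their summed CPM was 279 to 506, 445 to 619 and 55.9 to 64.6 in WT + TAM, and 231 to 300.2, 319 to 403 and 35.5 to 43.9 in Mtm1-/y + TAM. Their part in the 4 lower receptor genes was not tested.

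Other genes of the pathway were followed in 6 lists, and *Pdk4*, *Perm1*, *Vegfa* and *Nrip1* stand on more than 1 of them. The lists were chosen with earlier results of these data known. Their shares of calls beside those of all tested genes are thus descriptions and no test of a hormone response. Glucocorticoid-responsive genes, known to be induced by the hormone in muscle or other tissues, were higher in Mtm1-/y than in WT in 20 of 26 cases and lower in 0, where 15.5% of all tested genes were called higher. Their median log2 fold change was 1.42. The metallothionein genes *Mt2* (5.04, SE 0.62, adjusted p 0.000129) and *Mt1* (3.61, SE 0.48) and the cell cycle inhibitor gene *Cdkn1a* (3.15, SE 0.45) led the calls. *Mt2* was at 5.95, 8.14, 5.397 and 7.04 CPM in WT and at 228, 321, 214 and 108 CPM in Mtm1-/y. Every mutant library was above all WT libraries. The receptor gene *Nr3c1* itself did not pass, as given above.

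Other classical targets were among the calls, the cochaperone gene *Fkbp5* (2.17, adjusted p 0.0309) and *Tsc22d3* (0.88, adjusted p 0.0283), which encodes the glucocorticoid-induced leucine zipper. *Fkbp5* was at 28.1 to 47.6 CPM in WT and at 326, 84.8, 257 and 31.9 CPM in Mtm1-/y, where replicate 4 lay within WT. The 6 that did not pass were *Arrdc2*, *Bcl6*, *Klf9*, *Per1*, *Zbtb16* and *Sgk1*. *Sgk1*, with the glucocorticoid element near its start, was at 246 to 292 CPM in WT and 183 to 339 CPM in Mtm1-/y (-0.17, SE 0.25, adjusted p 0.638). The count of 20 ranged from 13 to 23 over the alternatives, with 13 under no count filter. Without Mtm1-/y replicate 1, it was 15 and the median 0.99.

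**Figure D4:**
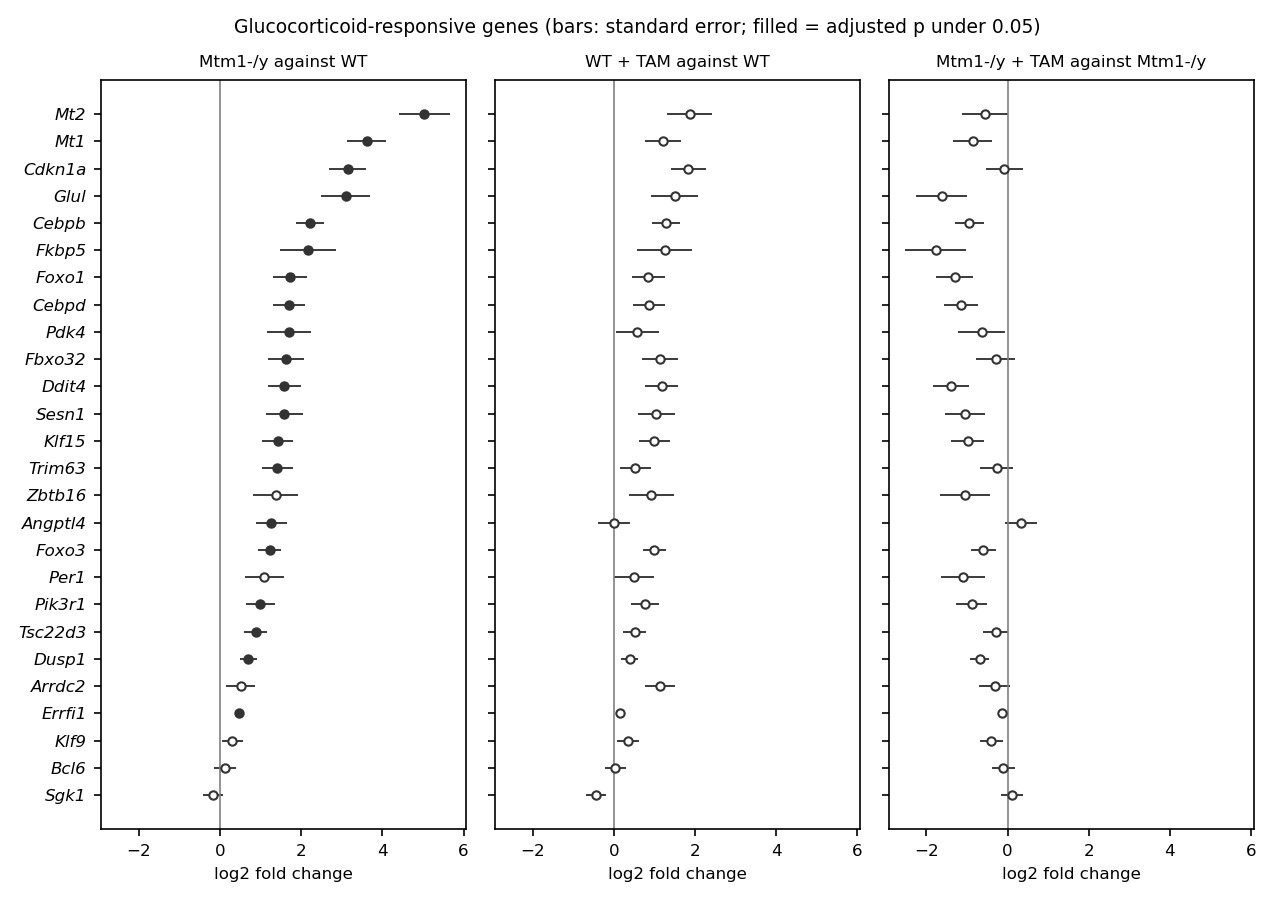
Log2 fold change of the 26 glucocorticoid-responsive genes in 3 comparisons, ordered by the first, with the standard error as bars and filled symbols for an adjusted p under 0.05. The 20 filled symbols are all in the comparison of Mtm1-/y with WT, in which *Sgk1* is the lowest.

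With tamoxifen, 0 of the 26 were called in either genotype by edgeR. In WT + TAM against WT, 13 had an unadjusted p under 0.05, DESeq2 called 5 and limma-voom 0, edgeR called 1 without WT + TAM replicate 1 and 2 without both libraries that stood apart, and the median log2 fold change was 0.90. In Mtm1-/y + TAM against Mtm1-/y, 9 had an unadjusted p under 0.05, DESeq2 and limma-voom called 0, and the median was -0.66. Both medians share untreated controls with the genotype comparison (WT in the first, Mtm1-/y in the second). For the interaction the median was -1.63, with 0 called by edgeR, 19 at an unadjusted p under 0.05, 6 called by DESeq2 and 0 by limma-voom. Between the treated groups 3 of 26 were higher, close to the 10.6% of all tested genes called higher, namely *Mt2* (2.61), *Angptl4* (1.59), an inhibitor of lipoprotein lipase, and *Mt1* (1.53), and the median was -0.17. Those 3 calls became 1 without Mtm1-/y + TAM replicate 2 and 5 without WT + TAM replicate 4.

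By library, the mean log2 CPM of the 26 genes relative to the WT mean was -0.09 to 0.07 in WT and 0.84, 0.29, 0.51 and 1.26 in WT + TAM. It was 2.16, 1.33, 1.55 and 0.58 in Mtm1-/y and 0.93, 0.95 and 0.71 in Mtm1-/y + TAM. All 11 other libraries were above the 4 WT libraries, and the spread within WT + TAM and Mtm1-/y was far wider than within WT.

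**Figure D5:**
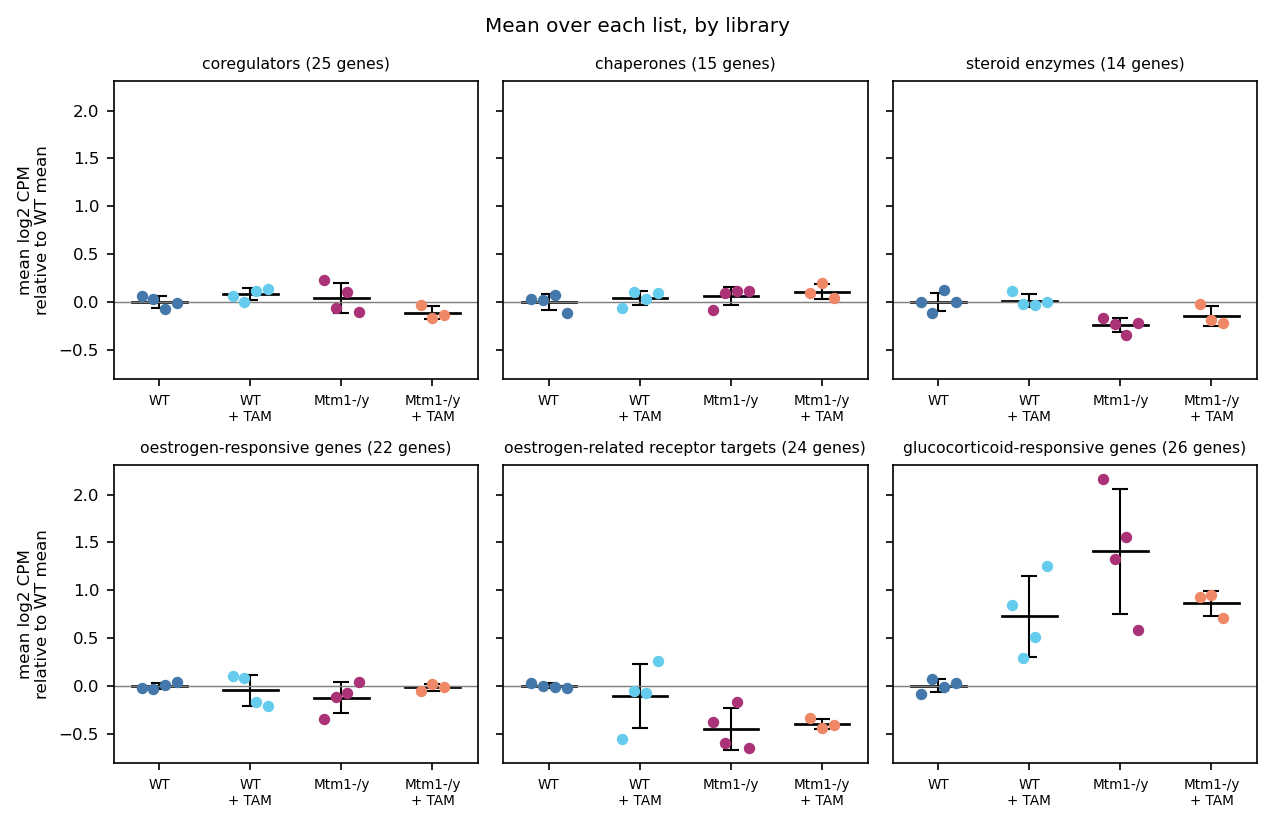
Mean log2 CPM of each of 6 gene lists relative to its WT mean, with 1 point per library, the group mean as a line and bars of 1 SD. Glucocorticoid-responsive genes are above the WT libraries in every other group, and oestrogen-related receptor targets are below WT in every Mtm1-/y library, treated or not.

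Oestrogen-related receptor targets, a list of metabolic genes, were lower in Mtm1-/y in 12 of 24 cases and higher in 1, where 14.9% of all tested genes were called lower. Their median log2 fold change was -0.48. The mitochondrial creatine kinase gene *Ckmt2* (-1.43, SE 0.22, adjusted p 0.000237), the cytochrome c gene *Cycs* (-1.15, SE 0.21) and the vascular growth factor gene *Vegfa* (-0.83, SE 0.25) led the lower calls, and *Pdk4*, which restrains glucose oxidation and is also on the glucocorticoid list, rose (1.70, SE 0.55, adjusted p 0.0315). *Ckmt2* was at 2013 to 2272 CPM in WT and 565, 748, 1022 and 777 CPM in Mtm1-/y. The count of 13 ranged from 7 to 18 over the alternatives, and was 7 without WT replicate 1 or without Mtm1-/y replicate 2, and 8 without WT replicate 2 or without Mtm1-/y replicate 4.

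Between the treated groups only *Ppara*, a fatty acid-sensing receptor gene, was called on that list (-1.12, SE 0.36, adjusted p 0.0418), with a median of -0.29. By library, the mean of the list was -0.55 in WT + TAM replicate 1 and -0.08 to 0.26 in the other 3 WT + TAM libraries, against -0.44 to -0.34 in Mtm1-/y + TAM. The count of 1 ranged from 0 to 19 over the alternatives. It was 12 without WT + TAM replicate 1, 6 without Mtm1-/y replicate 1, 4 without Mtm1-/y replicate 2, 2 without Mtm1-/y replicate 4, 19 without both libraries that stood apart and 7 by DESeq2. It was 0 without WT replicate 2 or 4, WT + TAM replicate 2 or 3, or any 1 Mtm1-/y + TAM library. Tamoxifen gave 0 calls in either genotype (edgeR, 2 at an unadjusted p under 0.05 in each, 0 by DESeq2 and limma-voom).

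Enzymes of steroid activation and of the sterol steps that bind tamoxifen had 14 of 18 genes tested, of which 4 were lower and 2 higher in Mtm1-/y, where 30.4% of all tested genes were called in either direction. *Hsd11b1*, whose enzyme regenerates active glucocorticoid inside cells, was at 5.36, 6.08, 7.96 and 5.31 CPM in WT and 2.80, 1.85, 1.72 and 1.70 CPM in Mtm1-/y. Its log2 fold change was -1.61 (SE 0.26, adjusted p 0.000369), and -1.04 (SE 0.28, adjusted p 0.017) between the treated groups. The cholesterol synthesis gene *Dhcr7* (-0.76, SE 0.15) was lower as well. *Cyp27a1* (0.50, SE 0.18), a sterol hydroxylase gene, and *Hsd17b10* (0.49, SE 0.11), a mitochondrial dehydrogenase gene, were higher. Between the treated groups *Hsd11b1* was among the 2 calls of 14 (4 without both libraries that stood apart), a share below the 20.1% of all tested genes, with 4 calls without Mtm1-/y replicate 1 and 1 without Mtm1-/y + TAM replicate 2.

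Coregulators and chaperones were called at about the rate of all tested genes in Mtm1-/y against WT (30.4%), at 8 of 25 and 4 of 15. The calls of that comparison are thus values of single genes and not of the lists. Of the coregulators 6 were higher and 2 lower, led by *Pnrc1* (0.65), the arginine methyltransferase gene *Prmt1* (0.53) and *Safb* (0.38), with the coactivator genes *Ncoa1* (-0.48) and *Carm1* (-0.34) lower. Between the treated groups, 2 of 25 coregulators were higher and 7 lower. Of all tested genes, 20.1% were called there, 10.6% higher and 9.46% lower, so the lower coregulators exceeded the share of all genes. They were led by the acetyltransferase gene *Ep300* (-0.81, edgeR adjusted p 0.000981), *Ncoa1* (-0.77) and the corepressor gene *Ncor1* (-0.61), with *Pnrc2* (0.35) and *Smarca4* (0.26) higher. The 8 calls were 4 without WT replicate 1 or 4, and the 9 were 5 without any 1 Mtm1-/y + TAM library. Of 15 chaperones, *Bag1* (0.43) and *Hsp90ab1* (0.42) were higher and the cochaperone genes *Fkbp4* (-0.45) and *Ppid* (-0.33) lower in Mtm1-/y. The treated groups again differed in *Bag1* (0.49), *Hsp90ab1* (0.39) and *Fkbp4* (-0.52). Medians of both lists were within 0.14 of 0 on the log2 scale in these genotype comparisons. With tamoxifen, edgeR called 0 genes of either list in either genotype. In WT, 18 of 25 coregulators had a positive log2 fold change (median 0.09, 3 at an unadjusted p under 0.05). In Mtm1-/y, 22 had a negative one (median -0.19, 5 at an unadjusted p under 0.05). Their interaction had a median of -0.25, with 0 called and 5 at an unadjusted p under 0.05. Chaperone medians were 0.02 and 0.04.

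Oestrogen-responsive genes, known mostly from breast and reproductive tissue, had 22 of 26 tested, of which 3 were higher and 5 lower in Mtm1-/y, a total of 8 that is near the 30.4% of all tested genes. The cyclin gene *Ccnd1* (-2.17, SE 0.54), the growth factor gene *Igf1* (-1.39, SE 0.47) and *Celsr2* (-1.06, SE 0.17) led the lower calls, and *Fos* (1.55, SE 0.51), the small heat shock protein gene *Hspb8* (1.55, SE 0.18) and *Xbp1* (0.77, SE 0.15) were the 3 higher. That total of 8 was 4 without WT replicate 2 and 5 without WT replicate 1. *Xbp1*, a regulator of the unfolded protein response, was the 1 gene of all 6 lists called for tamoxifen in WT. It was at 40.5, 47.4, 50.4 and 46.3 CPM in WT and 52.7, 99.6, 88.8 and 86.4 CPM in WT + TAM, without overlap of the groups (0.83, SE 0.15, adjusted p 0.0296). That call was lost without any 1 of the 4 WT libraries, without WT + TAM replicate 3 or 4, and in a fit of these 2 groups alone. Other settings gave more calls for tamoxifen in WT. The oestrogen-responsive list had 2 without WT + TAM replicate 1, 3 without both libraries that stood apart and 3 by DESeq2. The steroid enzymes had 1, in place of 0, by DESeq2, in a fit of the 2 groups alone, without Mtm1-/y replicate 1 and without both libraries. In Mtm1-/y + TAM *Xbp1* was at 82.8, 94.5 and 97.6 CPM, against 71.5 to 85.5 in Mtm1-/y (0.22, adjusted p 0.877). Between the treated groups *Hspb8* (2.25), *Myc* (1.39) and the low-count *Susd3* (2.41) were higher and *Celsr2* (-1.75) and *Stc2* (-1.08) lower, and these 5 of 22 calls, near the 20.1% of all tested genes, were 3 without Mtm1-/y + TAM replicate 1.

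Across the 15 libraries, log2 CPM of *Esr1* was like that of *Xylt1* (Pearson's r 0.982, and 0.94 for deviations from the group means) and *Pds5b* (0.967, and 0.857). The second value in each bracket below is likewise r for deviations from the group means. For *Esrrb* the nearest were *Rai14* (0.966, 0.724), *Igip* (0.95, 0.557) and *Smurf2* (0.946, 0.570). For *Greb1* they were *Spon1* (0.922, 0.693), *Plce1* (0.888, 0.760) and *Sorl1* (0.861, 0.709), and for *Gper1* *Sema6b* (0.904, 0.738), *Kcna5* (0.901, 0.775) and *Jdp2* (0.90, 0.816). *Esrra* was nearest to *Mgrn1* (0.943, 0.947), *Rab7* (0.912, 0.897) and *Scn3b* (0.908, 0.931), and *Nr3c1* to *Calcrl* (0.927, 0.759), *Car3* (0.914, 0.764) and *Pde4dip* (0.909, 0.677). *Nr3c2* was nearest to *Tbc1d1* (0.81, 0.738), *Rac1* (0.792, 0.765) and *Abhd14b* (0.791, 0.768), and *Esrrg* to *Asph* (0.779, 0.742), *Wdfy3* (0.773, 0.810) and *Zbtb20* (0.772, 0.713). These are descriptions over libraries that share groups. Among the 8 tested genes themselves, *Esr1* and *Esrrb* were most alike (0.816), and their deviations from the group means were not (0.08).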

How the data were processed

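Counts of reads per gene, as deposited by the authors, were not normalized. The submitters' processing notes list STAR 2.5.3a, HTSeq 0.6.1p1, cutadapt 1.10 and Bowtie2 2.2.8, with builds GRCm38 and mm10, but no roles. Sources used here did not give the annotation release, read filters or strand setting. All 30672 identifiers matched GENCODE M21 (GRCm38), from which symbols, positions and exon lengths came. Promoter sequences came from RefSeq.

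Counts were fitted with edgeR 4.0.16 in R 4.3.3 (filterByExpr with a minimum count of 10, 15533 genes, TMM factors, 4 group means, robust glmQLFit, 11 residual degrees of freedom, common biological coefficient of variation 20.8%). Benjamini-Hochberg adjustment ran over all tested genes, and calls had an adjusted p under 0.05. CPM and RPKM use TMM-scaled totals, except the limits and pooled values of *Pgr*, and log2 CPM a prior count of 2. The pipeline was tested on simulated data. DESeq2 1.42.0, limma 3.58.1 (voom), other factors and filters, a replicate block and omission of libraries were alternatives. The 9 genes, the lists and the marker genes were chosen with earlier results of these data known. From each list the 3 highest and 3 lowest called genes (mean log2 CPM of at least 1) were named, and for likeness the 3 nearest protein-coding genes. *Fkbp5*, *Tsc22d3*, *Susd3*, *Calcr*, *Sgk1* and the other genes that did not pass on the glucocorticoid list were chosen after their values were seen. *Sts* and *Tff1* had no row under these symbols. Some genes that these rules name are not reported here.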

Additional observations from a re-analysis of the deposited data

Results flagged for a closer look

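In groups of 4 libraries, 26 sets of CPM values were searched for a library far from the others, and 4 were found. For continuous values chance flags about 1 of 20 sets, a rate that does not hold for sets with many counts of 0. *Gper1* in Mtm1-/y replicate 4 was at 1.19 CPM, with a gap of 0.906 of the group's range below the next library. *Esrrb* in WT + TAM replicate 4 was at 5.79 CPM, with a gap of 0.882 of the range above the next. *Pgr* was at 0.0492 CPM in WT replicate 1, from 2 counts, where the other 3 WT libraries were at 0. Any single library above 0 then has a gap of 1, so that flag was fixed in advance. In WT + TAM replicate 2 *Pgr* was at 0.866 CPM (gap 0.859).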

How the results depend on the processing

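Over 1136 recalculations of the values of the 8 tested genes, every called difference stayed called in the same direction, 4 further values passed the threshold and 39 uncalled values changed sign. The members called stayed at 3 to 4 (Mtm1-/y against WT), 4 to 5 (Mtm1-/y + TAM against WT + TAM) and 0 (tamoxifen in either genotype, interaction). For the averaged tamoxifen effect the count was 0, and 1 without the count filter, which admitted *Pgr*.

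The 4 that passed were *Esrra* between the treated groups without WT + TAM replicate 1 (-0.49) and *Nr3c1* between untreated groups without Mtm1-/y replicate 1 (-0.40), each also without both libraries together. Changes of sign were as follows. *Esr1* in WT + TAM against WT was 0.0045 with RLE factors, 0.00025 with the stricter filter, 0.0048 with DESeq2, 4.5e-05 with limma-voom and 0.020 without both libraries. Without both libraries, *Esr1* was -0.083 (tamoxifen in Mtm1-/y), -0.103 (interaction) and -0.032 (average), *Esrra* -0.029 (Mtm1-/y against WT) and 0.029 (average), and *Nr3c2* 0.020 (Mtm1-/y against WT). *Esrrb* in Mtm1-/y + TAM against Mtm1-/y was -0.012 with limma-voom, and the *Esrrg* interaction 0.039 with upper-quartile factors. Leaving out 1 library at a time, *Esr1* ranged from -0.048 to 0.048 (tamoxifen in WT), -0.082 to 0.168 (in Mtm1-/y), -0.080 to 0.172 (interaction) and -0.042 to 0.082 (average), *Esrra* from -0.029 to 0.179 and *Nr3c2* from -0.132 to 0.021 (Mtm1-/y against WT), *Esrrb* from -0.130 to 0.226 (tamoxifen in Mtm1-/y), *Nr3c1* from -0.031 to 0.084 (average), and *Esrrg* from -0.112 to 0.028 (Mtm1-/y against WT), -0.220 to 0.122 (treated groups) and -0.173 to 0.169 (interaction). The cause of these changes was not tested.

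Whether the replicate numbers pair the libraries was not settled. Of 21 correlations of same-numbered deviations between groups, -0.11 to 0.31, 6 were over 0.1. Libraries with different numbers were not compared, so these values cannot exclude a pairing. With a replicate block the members called were 3, 0, 0, 4, 0 and 0 in the 6 comparisons, and no call of the 8 genes changed. All genes called with the block were 33 in place of 48 for tamoxifen in WT. Over all alternatives the genes called ranged from 3693 to 5257 (4727 as reported) for Mtm1-/y against WT, 1656 to 4600 (3121) between the treated groups, with 1656 without Mtm1-/y + TAM replicate 2, 11 to 347 (48) for tamoxifen in WT, 0 to 7 (2) in Mtm1-/y, 0 to 74 (0) for the interaction and 10 to 128 (32) for the average. Without both libraries that stood apart, the oestrogen-responsive list had 1 call in the interaction and 1 in the average, and the steroid enzymes 1 in the average, in place of 0. For tamoxifen in WT the count was 11 to 19 without any 1 WT library, 111 without WT + TAM replicate 1, 22 and 21 without WT + TAM replicates 3 and 4, and 143 without Mtm1-/y replicate 1. Genes with few counts (*Greb1* 27 to 102, *Gper1* 20 to 92, *Esrrb* 37 to 171) limit what depth can show.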
